A study of Mus musculus with 16 samples.

Results

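The common-gamma and IL-18 cytokine receptors comprised 9 genes, Il2ra, Il2rb, Il2rg, Il7r, Il15ra, Il4ra, Il21r, Il18r1, and Il18rap. They were chosen by name as the measured chains of the receptors for IL-2, IL-7, IL-15, IL-4, IL-21, and IL-18. All 9 were among the 16243 genes listed in each of 9 matrices of CD8+ T cells, of 32285 genes listed in any of them. Values were taken from the 56585 cells that held at least 1 UMI (a unique molecular identifier, the tag that marks 1 captured RNA molecule) of Cd8a or Cd8b1, of 72639 cells in these matrices.

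The common gamma chain, encoded by Il2rg, pairs with cytokine-specific chains and signals through JAK1, JAK3, and STAT proteins. In T cells, the IL-7 receptor supports survival at rest, the alpha chain of the IL-2 receptor is induced on activation and raises affinity for IL-2, and the beta chain is shared by IL-2 and IL-15. The IL-18 receptor belongs to a separate family that signals through MyD88, with Il18r1 encoding its ligand-binding chain and Il18rap its accessory chain.

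The study transplanted kidneys between mismatched mouse strains and sequenced CD45+ leukocytes by the droplet 3′ method, from which the authors called CD8+ T cells. Accepted grafts were DBA/2J kidneys in C57BL/6 (B6) recipients, collected with the recipient spleen after 1 week (3 libraries each), 3 weeks (5 each), and 24 weeks (3 each). Rejecting grafts were B6 kidneys in DBA/2J recipients, collected after 1 week (2 graft libraries and 3 spleen libraries), and 5 libraries came from naive spleen. All animals were wild type and male, without immunosuppressive treatment in the groups used here. The labels give C57BL/6J as the strain of every sample and the strains above come from the study's methods, so outcome and recipient strain cannot be told apart in any comparison of rejecting with accepted grafts. Libraries were told apart by tags in the cell barcodes and taken as separate mice, donor cells left in a graft were not separated from recipient cells, and fewer expressing cells cannot be told apart from less RNA per cell in summed counts.

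The libraries held between 153266 and 22782080 UMIs in CD8+ cells, with a median of 1764 to 6069 UMIs per cell. Cells with a Cd8a or Cd8b1 UMI made up 77.2% to 100% of the cells in 6 of the 9 matrices, but 44.2% and 46.8% in recipient spleens at 1 and 3 weeks and 47.4% in the grafts labelled 24 weeks. The 24-week labels went against their markers: summed over 10 kidney parenchyma genes, the libraries labelled spleen held 4.39 to 5.56 CPM (UMIs of a gene scaled to a library total of 1e6) with 7 genes above 0, and those labelled graft held 0 to 0.474 with 1 gene above 0. The 3 genes of activated T cells (Cd44, Gzmb, Pdcd1) summed to 15.6 to 25.03 CPM in the libraries labelled graft and 1015 to 1184 CPM in those labelled spleen. These 6 libraries are therefore named by their labels throughout, and no tissue is read from them. In the rejecting grafts Cd4 was listed at 0, and 1 rejecting spleen library held only 56 cells. The libraries shared at most 1.79% of the barcodes of the smaller library over 496 pairs.

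The plot of levels by library gives each member in all 32 libraries.

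**Figure D1:**
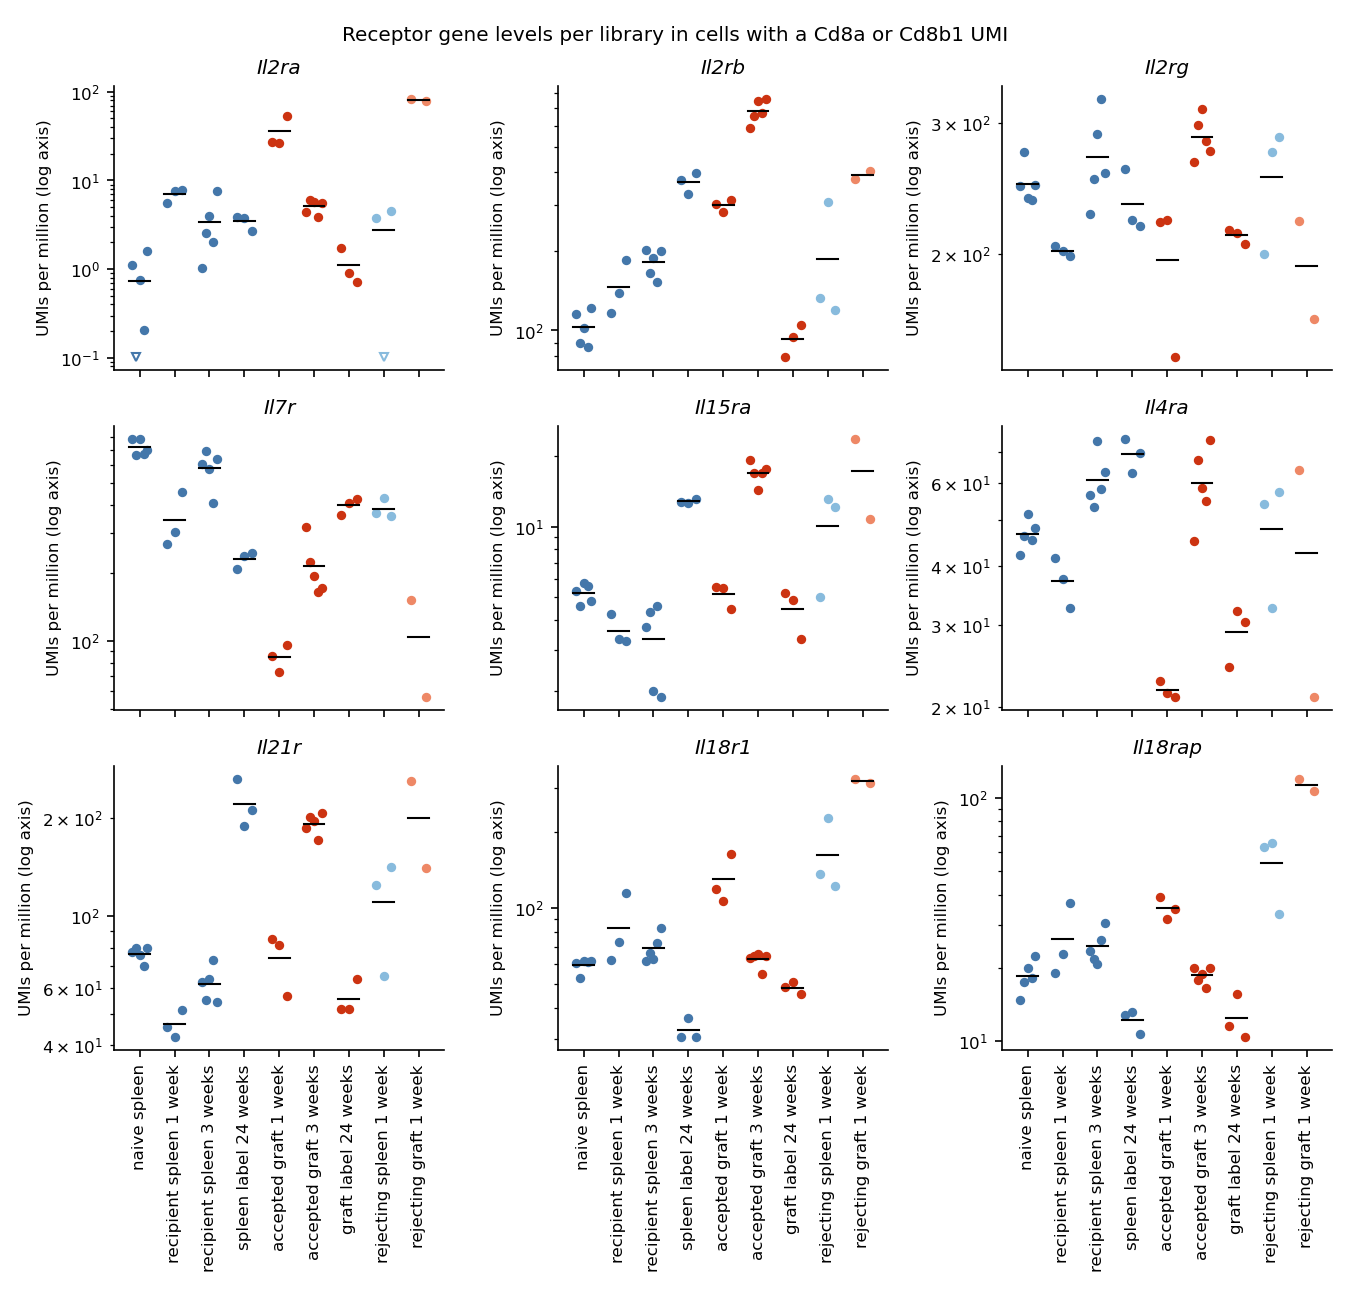
Level of each of the 9 receptor genes in CD8+ cells, as CPM on a log axis, in each library of the 9 conditions; points are libraries, black lines means, open triangles libraries with 0 UMIs, blue spleen, red graft, and lighter colours rejecting mice. Il2ra and both IL-18 receptor chains stood highest in rejecting grafts, Il2rb highest in accepted grafts at 3 weeks, and Il7r highest in naive spleen.

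Within accepted grafts, all 9 receptor genes differed between 1 and 3 weeks. Of these, 6 were higher at 3 weeks (Il2rb, Il2rg, Il7r, Il15ra, Il4ra, and Il21r), and 3 were lower (Il2ra, Il18r1, and Il18rap). By edgeR's quasi-likelihood test at an adjusted p under 0.05, 74.8% of all 11638 genes tested were called in this comparison, 53.6% as higher and 21.2% as lower, so a call alone was common. The median of all genes was 0.41 higher at 3 weeks on the log2 scale and that of the members 1.19. Of all calls 71.6% were higher with plain library totals and 49.7% with TMM factors.

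Il2ra, the inducible alpha chain of the IL-2 receptor, was measured at 27.4, 26.4, and 53.6 CPM in the 3 accepted grafts at 1 week. At 3 weeks it was 4.37, 6.02, 5.67, 3.86, and 5.52 CPM. Every 1-week graft lay above every 3-week graft, with the third 1-week library the highest by far. The difference was −2.83 ± 0.22 (log2, SE, adjusted p = 3.13e-08), the largest fall among the members.

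The share of CD8+ cells with an Il2ra UMI, with each cell thinned to 1000 UMIs, was 2.56% ± 1.19 (SD, n = 3) at 1 week and 0.461% ± 0.114 (n = 5) at 3 weeks. The exact permutation test over libraries gave p = 0.0357, the smallest it can give with 3 against 5. Without thinning the shares were 8.86% and 1.14%. For comparison, thinned to the same 1000 UMIs, 0.170% of 26407 B cell-like cells of naive spleen held an Il2ra UMI (median 2713 UMIs and 0.428% before thinning), and 0.437% of 5724 myeloid-like cells of rejecting grafts did (median 2461 and 1.24%). The 3-week share was thus near the myeloid-like background, while the 1-week share in each library was at least 1.78%.

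Il2rb, the chain shared by IL-2 and IL-15, moved the other way. Its level was 302, 283, and 313 CPM in the 1-week grafts and 588, 654, 744, 672, and 759 CPM in the 3-week grafts. The groups did not overlap, and the difference was 1.19 ± 0.09 (log2, adjusted p = 3.46e-08). Cells with an Il2rb UMI rose from 24.3% ± 1.00 (n = 3) to 45.2% ± 3.41 (n = 5, exact permutation p = 0.0357), against 0.121% in B cell-like cells. NK cells also express Il2rb, and 3 NK cell genes summed to 12.9 to 15.7 CPM at 1 week and 26.1 to 50.8 CPM at 3 weeks, whose part in the result was not tested.

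Il2rg, the common gamma chain, had the smallest difference of the 9. It was measured at 221, 223, and 146 CPM in 1-week grafts and at 266 to 313 CPM in 3-week grafts. Its difference of 0.55 ± 0.12 (adjusted p = 0.00076) was close to the median of all genes, and with TMM factors it was 0.16 (adjusted p = 0.236), so the call rested on the scaling.

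Il7r, the alpha chain of the IL-7 receptor, was 86.3, 73.3, and 96.2 CPM in the 1-week grafts. At 3 weeks it was 319, 223, 195, 165, and 172 CPM, again with no overlap between the groups. The difference was 1.33 ± 0.18 (adjusted p = 8.85e-06), and the share of cells with a UMI went from 8.88% ± 1.18 to 15.8% ± 3.51 (exact permutation p = 0.0357).

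Dividing cells, here those with UMIs of at least 2 of Mki67, Top2a, Pclaf, Stmn1, and Birc5, made up 25.4% to 50.9% of CD8+ cells in the 1-week grafts and 0.647% to 1.40% in the 3-week grafts. Without them the Il7r difference was 0.73 (adjusted p = 0.00211), more than 1.5 times smaller, and the Il2ra difference was −2.23. All 9 members kept their direction and their call without dividing cells.

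Il15ra, the IL-15-specific chain, was scarce but separated. It was measured at 4.48 to 5.53 CPM in 1-week grafts and at 14.3 to 19.1 CPM in 3-week grafts, a difference of 1.73 ± 0.14 (adjusted p = 3.6e-08), and the share of cells with a UMI was 0.619% and 1.70%. Myeloid-like cells held it in 5.63%, and the summed level of 5 myeloid genes was 162 to 250 CPM at 1 week and 348 to 702 CPM at 3 weeks. The part of myeloid RNA in the Il15ra result, and in those of Il4ra and Il21r below, was not tested.

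Il4ra and Il21r, which encode the ligand-binding chains of the IL-4 and IL-21 receptors, both rose in the grafts. Il4ra was 21.1 to 22.8 CPM at 1 week and 45.1 to 74.3 CPM at 3 weeks (1.47 ± 0.14, adjusted p = 2.07e-07). Il21r was 56.9 to 84.9 CPM at 1 week and 172 to 208 CPM at 3 weeks (1.38 ± 0.12, adjusted p = 9.49e-08). Neither gene had overlapping groups. Myeloid-like cells held Il4ra in 14.1% and Il21r in 8.84%, and the myeloid genes rose beside them as given for Il15ra.

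Both chains of the IL-18 receptor fell. Il18r1 was 119, 106, and 165 CPM at 1 week and 63.2, 64.5, 65.9, 54.6, and 64.7 CPM at 3 weeks, a difference of −1.06 ± 0.12 (adjusted p = 1.16e-06). Il18rap was 39.0, 31.8, and 35.1 CPM at 1 week and 16.5 to 20.1 CPM in the 5 libraries at 3 weeks, a difference of −0.92 ± 0.10 (adjusted p = 9.89e-07). In neither gene did a 3-week library reach the lowest 1-week library, and the falls without dividing cells were −1.24 and −1.10. The share of cells with an Il18r1 UMI went from 12.8% ± 1.80 to 5.67% ± 0.771 (exact permutation p = 0.0357), and 0.367% of myeloid-like cells held one. For Il18rap the shares were 4.03% and 1.68%. It was held by 2.78% of myeloid-like cells of rejecting grafts, 7.18% of those of naive spleen, and 0.034% of B cell-like cells of naive spleen. The 3-week share was thus below that of myeloid-like cells and above that of B cell-like cells, and the part of myeloid RNA in the Il18rap values was not tested.

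**Figure D2:**
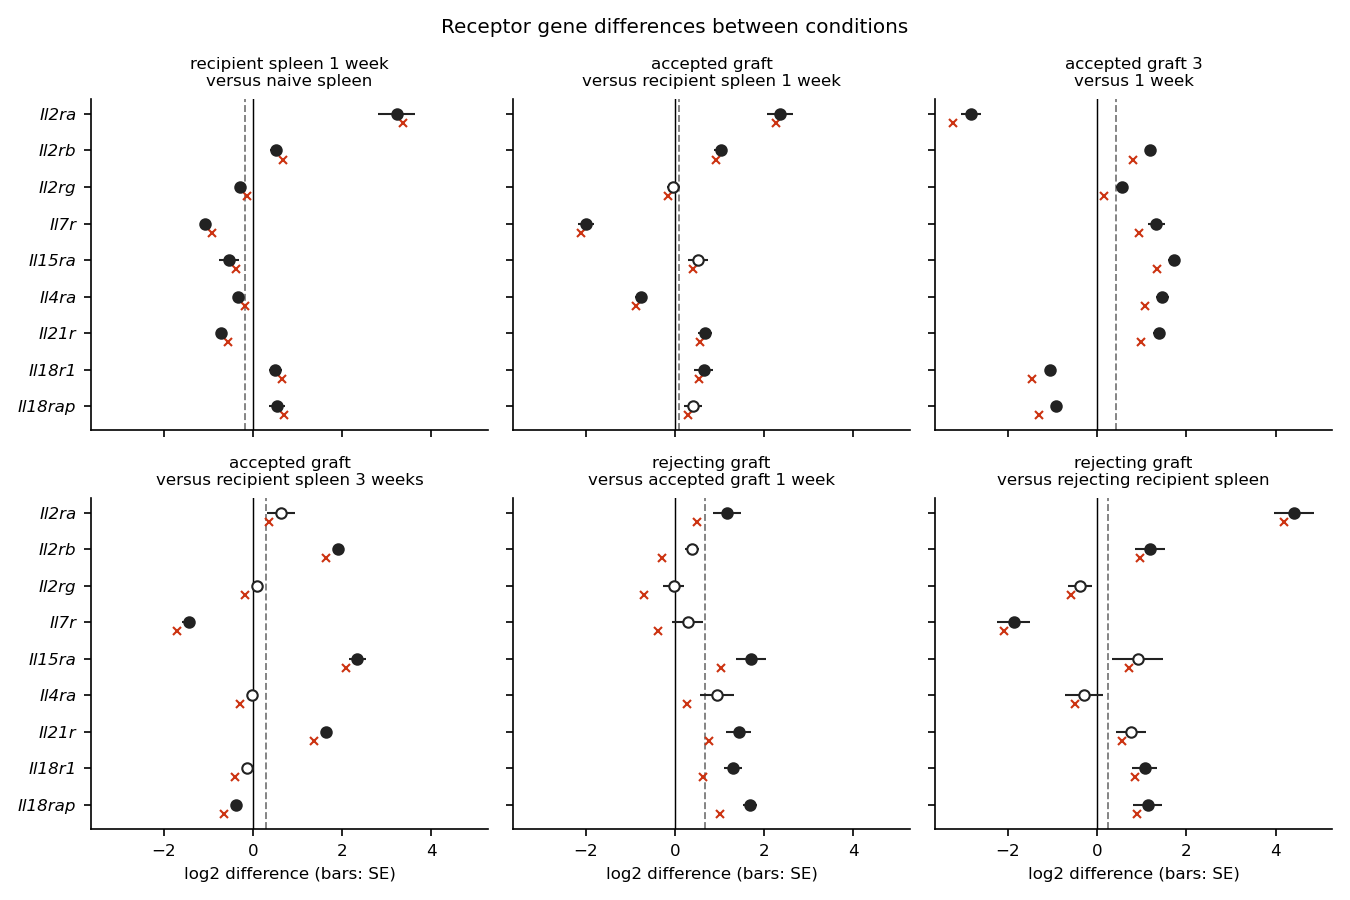
Log2 differences of the 9 receptor genes in 6 comparisons; filled points passed the adjusted p threshold of 0.05, open points did not, bars are standard errors, red crosses the values with TMM factors, and dashed grey lines the median of all genes tested. Between 1 and 3 weeks in accepted grafts, Il2ra, Il18r1, and Il18rap lay below 0 and the other 6 above it, with Il2rg near the dashed line.

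Recipient spleens were compared to ask whether these levels moved outside the graft. At 1 week 4 members were higher than in naive spleen and 5 were lower, in a comparison in which 57.6% of 10160 genes were called (21.1% higher and 36.5% lower) and the median of all genes was −0.17. Of these calls 36.6% were higher with plain totals and 51.9% with TMM. Il2ra was 5.52, 7.57, and 7.89 CPM in the 1-week spleens and 1.11, 0, 0.750, 0.207, and 1.61 CPM in naive spleens, where each library held 0 to 6 UMIs. The groups were apart (3.22 ± 0.41, adjusted p = 2.97e-06), but the share of cells with a UMI in naive spleen, 0.0861%, was no higher than the B cell-like background of 0.170% at the same depth. Il7r was 268, 302, and 455 CPM at 1 week and 782, 665, 778, 669, and 696 CPM in naive spleen, lower in every 1-week library (−1.07 ± 0.13, adjusted p = 1.59e-06).

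Smaller rises were called for Il2rb (0.52 ± 0.13), Il18r1 (0.50 ± 0.14), and Il18rap (0.54 ± 0.18), and a fall for Il21r (−0.71 ± 0.09). The falls of Il4ra (−0.33 ± 0.10), Il2rg (−0.30 ± 0.07), and Il15ra (−0.54 ± 0.23, adjusted p = 0.0494) lost their calls with TMM factors. Leaving out the third 1-week spleen library, which had the highest Il7r, Il18r1, and Il18rap levels and the most dividing cells (10.6%), left 5 of the 9 calls. Without it Il18r1 was 0.18 (adjusted p = 0.11) and Il18rap 0.18 (adjusted p = 0.334), and Il4ra and Il15ra also lost their calls, while Il7r kept its own. The B cell genes Cd79a, Cd79b, and Ms4a1 summed to 379 to 811 CPM in the 1-week spleens and 24.5 to 48.3 CPM in naive spleens. B cell-like cells held Il2rg in 21.7%, Il21r in 8.93%, Il4ra in 8.69%, and Il7r in 0.163%, and the part of B cell RNA in these differences was not tested.

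From 1 to 3 weeks in recipient spleens, where 49.3% of 9468 genes were called (31.9% higher and 17.4% lower) and the median was 0.17, Il7r, Il4ra, Il2rg, Il21r, and Il2rb were higher and Il2ra lower. Of these calls 64.7% were higher with plain totals and 47.4% with TMM. Il7r was 606, 692, 574, 406, and 635 CPM at 3 weeks and overlapped the 1-week spleens in 1 library (0.77 ± 0.16, adjusted p = 0.000535). Il4ra was 53.3 to 73.7 CPM at 3 weeks and 32.5 to 41.6 CPM at 1 week (0.72 ± 0.12, adjusted p = 6.03e-05). Il2ra was 1.02, 2.54, 4.01, 2.03, and 7.56 CPM at 3 weeks, a wide range that reached the 1-week values (−1.09 ± 0.36, adjusted p = 0.0176), and its difference was not called without cells that held a Cd4 UMI (−0.76) or without dividing cells (−0.29). The calls of Il2rb and Il21r were lost with TMM factors (0.17 and 0.26) and with DESeq2. Il15ra, Il18r1, and Il18rap did not pass the test, at −0.11 ± 0.31, −0.29 ± 0.15, and −0.14 ± 0.19, although Il18r1 was called lower with TMM factors (−0.43, adjusted p = 0.0263). The 3 B cell genes summed to 95.04 to 266 CPM at 3 weeks, below the 1-week spleens, and their part in these differences was not tested.

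The graft was also set against the spleen of the same time. At 1 week Il2ra was higher in the graft (2.36 ± 0.29, adjusted p = 4.43e-05), as were Il2rb (1.03 ± 0.15), Il21r (0.67 ± 0.15), and Il18r1 (0.64 ± 0.21), while Il7r (−2.003 ± 0.18, adjusted p = 4.23e-06) and Il4ra (−0.77 ± 0.13) were lower. Here 49.4% of 11133 genes were called (30% higher and 19.4% lower), the median was 0.08, and 60.7% of calls were higher in the graft with plain totals and 49.8% with TMM. The Il18r1 call was lost with TMM factors (0.53, adjusted p = 0.0565), and without the third graft or the first or second spleen library (0.43 to 0.55, adjusted p from 0.0781 to 0.106). Il15ra (0.51 ± 0.23, adjusted p = 0.0812), Il18rap (0.40 ± 0.20, adjusted p = 0.122), and Il2rg (−0.04 ± 0.15) did not pass. Without dividing cells, which made up 25.4% to 50.9% of graft and 2.72% to 10.6% of spleen cells, Il15ra (0.79, adjusted p = 0.0212) and Il18rap (0.66, adjusted p = 0.00784) were called higher. Il18rap was also called without the third spleen library (0.75, adjusted p = 0.00166). Graft and spleen did not overlap in Il2ra, Il2rb, Il7r, Il4ra, Il21r, or Il15ra, and overlapped in Il2rg, Il18r1, and Il18rap. The 3 B cell genes summed to 8.86 to 9.09 CPM in these grafts, far under the 1-week spleens, and the 5 myeloid genes to 162 to 250 CPM in the grafts and 24.4 to 30.3 CPM in the spleens, and their part in these differences was not tested.

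At 3 weeks the members that set the graft apart were others in part. Il15ra (2.34 ± 0.20, adjusted p = 2.84e-09), Il2rb (1.91 ± 0.09, adjusted p = 2.42e-13), and Il21r (1.64 ± 0.08, adjusted p = 1.11e-12) were higher in the graft, and Il7r (−1.44 ± 0.15, adjusted p = 7.43e-08) and Il18rap (−0.38 ± 0.12) were lower, where 65.4% of 10619 genes were called (48.6% higher and 16.8% lower). The median was 0.28, and 74.4% of calls were higher with plain totals and 52.0% with TMM. Il2ra differed by 0.63 ± 0.32 (adjusted p = 0.0937), Il2rg by 0.09 ± 0.08, Il4ra by −0.02 ± 0.12, and Il18r1 by −0.14 ± 0.09, none of which passed. Il18r1 was called lower with TMM factors (−0.40, adjusted p = 0.000575) and with DESeq2 (−0.38), and Il2ra was called higher without the fifth spleen library (1.10, adjusted p = 0.00559). The 5 myeloid genes summed to 348 to 702 CPM in the grafts and 8.15 to 22.9 CPM in the spleens, and their part in the Il15ra and Il21r differences was not tested. Over all cells of the matrices, most of which lacked a Cd8a or Cd8b1 UMI in the recipient spleens, Il2ra was lower in the graft (−0.72, adjusted p = 0.00329), so this value turned on which cells were counted.

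The change of the graft-to-spleen difference between 1 and 3 weeks was tested as an interaction, in which 33.7% of 11895 genes were called (24.3% positive and 9.48% negative), the median was 0.23, and 71.9% of calls were positive with plain totals and 49.6% with TMM. It was positive for Il15ra (1.84 ± 0.31, adjusted p = 0.000105), Il21r (0.97 ± 0.17), Il2rb (0.88 ± 0.17), and Il4ra (0.75 ± 0.19). It was negative for Il2ra (−1.73 ± 0.52, adjusted p = 0.0129), Il18r1 (−0.77 ± 0.22), and Il18rap (−0.77 ± 0.23). For Il7r it was 0.56 ± 0.26 (adjusted p = 0.105) and for Il2rg 0.14 ± 0.16. The change over time thus differed between graft and spleen in 7 of the 9 members, although Il4ra lost its call with DESeq2 (0.52, adjusted p = 0.0593) and Il2ra without the fifth 3-week spleen library (−1.26, adjusted p = 0.0881).

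Of the 9 members, 6 lie in the genome as 3 neighbouring pairs on the same strand, with no protein-coding gene between them in the GENCODE annotation of build GRCm38. Il18r1 (chr1:40465552-40500854) and Il18rap (chr1:40515362-40551705) are separated by 14507 bases, Il2ra (chr2:11642807-11693193) and Il15ra (chr2:11705290-11734317) by 12096 bases, and Il4ra (chr7:125552120-125579474) and Il21r (chr7:125603429-125633570) by 23954 bases, all on the plus strand. In accepted grafts, the IL-18 pair fell together and the Il4ra and Il21r pair rose together, but Il2ra and Il15ra moved in opposite directions between 1 and 3 weeks.

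The 250 bases before the RefSeq start of each gene are shown for the pair that moved together most closely and the pair that moved apart (RefSeq, build GRCm38.p6, plus strand). Capitals mark matches to 4 motifs searched on both strands, TTCNNNGAA (STAT), TGTGGT (RUNX), TGANTCA (AP-1), and GGTGTG (T-box), which occur in 7.02%, 14.0%, 6.75%, and 16.3% of 32851 windows of this length.
Il18r1 (chr1:40465302-40465551): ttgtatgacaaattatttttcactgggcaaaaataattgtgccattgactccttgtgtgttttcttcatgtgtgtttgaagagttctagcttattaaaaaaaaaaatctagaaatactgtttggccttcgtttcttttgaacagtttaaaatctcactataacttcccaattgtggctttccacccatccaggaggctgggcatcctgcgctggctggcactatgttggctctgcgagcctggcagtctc
Il18rap (chr1:40515112-40515361): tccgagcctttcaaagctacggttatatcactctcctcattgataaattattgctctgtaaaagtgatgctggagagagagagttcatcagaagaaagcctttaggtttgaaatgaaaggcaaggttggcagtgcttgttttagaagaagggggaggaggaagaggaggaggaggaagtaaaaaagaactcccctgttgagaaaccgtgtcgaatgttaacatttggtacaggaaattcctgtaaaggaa
Il2ra (chr2:11642542-11642791): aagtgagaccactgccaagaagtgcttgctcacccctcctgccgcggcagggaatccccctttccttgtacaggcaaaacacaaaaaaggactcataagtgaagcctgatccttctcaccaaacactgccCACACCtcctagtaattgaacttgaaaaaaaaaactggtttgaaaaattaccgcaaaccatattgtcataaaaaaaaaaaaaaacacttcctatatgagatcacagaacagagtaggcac
Il15ra (chr2:11705043-11705292): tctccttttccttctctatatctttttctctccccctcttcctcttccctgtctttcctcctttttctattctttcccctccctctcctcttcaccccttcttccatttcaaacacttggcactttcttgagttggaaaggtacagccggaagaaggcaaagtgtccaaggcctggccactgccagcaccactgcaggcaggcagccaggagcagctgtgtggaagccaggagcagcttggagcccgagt
Of these 4 windows, only that of Il2ra held a match, 1 T-box match on the reverse strand. RefSeq windows were found for 8 of the 9 members.

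Across the means of the 9 conditions, the 2 IL-18 receptor genes followed each other more closely than any other pair of members. The Pearson correlation of log2(CPM + 1) was 0.985, and among 7323 genes each was the most alike to the other. Il15ra and Il21r came next among members, at 0.961, and Il2ra and Il7r were opposed, at −0.883. Il2ra and its neighbour Il15ra were at 0.346, and Il4ra and Il21r at 0.535. These are descriptions over 9 points that share libraries of unequal depth. Outside the receptor genes, the most alike gene was Arpc2 for Il2ra (0.979), Leprot for Il2rb (0.984), Hsf1 for Il2rg (0.955), Smad1 for Il7r (0.977), F2r for Il15ra (0.973), Fbxo32 for Il4ra (0.929), and Tsc22d2 for Il21r (0.984).

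The order of the 9 conditions differed between receptors. For Il2ra, the rejecting grafts (80.9 ± 3.18 CPM, SD, n = 2) and accepted grafts at 1 week (35.8 ± 15.4, n = 3) came first, each apart from the next, and the remaining 7 conditions overlapped with their neighbours in the order, from 6.99 ± 1.29 CPM in recipient spleen at 1 week to 0.734 ± 0.655 CPM in naive spleen. For Il2rb, accepted grafts at 3 weeks (683 ± 69.9) stood apart above rejecting grafts (390 ± 21.2) and the libraries labelled spleen at 24 weeks (367 ± 33.7), which overlapped. For Il7r, naive spleen (718 ± 57.7) and recipient spleen at 3 weeks (583 ± 108) overlapped at the top, and the accepted grafts at 1 week (85.3 ± 11.5) and rejecting grafts (105 ± 67.6) overlapped at the bottom. For Il2rg all condition means lay between 193 and 287 CPM.

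Within single cells, the question was whether Il7r, Il2ra, and Il2rb excluded each other. In the 3-week grafts, cells with Il2rb and without Il7r or Il2ra made up 38.9% ± 4.06 (n = 5) of CD8+ cells thinned to 1000 UMIs, cells with Il7r alone 9.60% ± 2.67, and cells with both 6.08% ± 0.915. In the 1-week grafts these shares were 21.9% ± 0.316, 6.90% ± 1.01, and 1.75% ± 0.437 (n = 3), and in naive spleen Il7r alone was the largest of the 3, at 39.9%, with Il2rb alone at 4.73% and both at 4.21%. A cell without a UMI at this depth may still have expressed the gene, and 44.9% of cells in 3-week grafts and 66.8% in 1-week grafts had none of the 3.

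**Figure D3:**
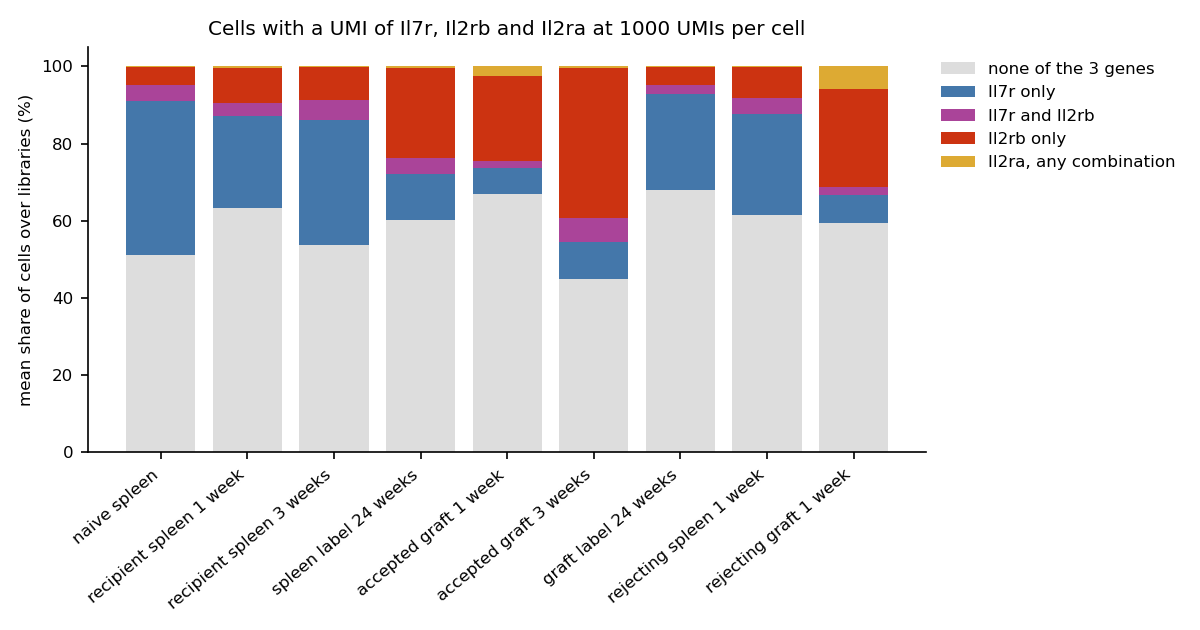
Mean share of CD8+ cells, thinned to 1000 UMIs each, that held a UMI of Il7r only, Il7r and Il2rb, Il2rb only, any Il2ra, or none of the 3, as stacked bars in percent for the 9 conditions. Il7r only was the largest of the receptor-bearing classes in naive spleen (39.9%) and Il2rb only in accepted grafts at 3 weeks (38.9%).

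Il7r and Il2rb overlapped less than independence would give in every accepted graft library of 1 and 3 weeks, but not in the libraries labelled graft at 24 weeks. In the third 3-week library, Il2rb was detected in 41.0% of cells with an Il7r UMI and in 49.3% of cells without, and 294 cells held both where independence gives 345. The log2 odds ratio was −0.484, −0.311, −0.482, −0.432, and −0.431 in the 5 grafts at 3 weeks and −0.558, −0.394, and −0.145 in the 3 grafts at 1 week. All 8 were below 0 (mean −0.40 ± 0.13, SD), and an exact permutation of their signs, chosen after the values were seen, gave p = 0.00781, the smallest possible with 8. Over all 36 pairs of members tested in this way the adjusted p was 0.0563, so no pair passed the threshold after adjustment.

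Cells with both genes numbered 1298 at 3 weeks and 270 at 1 week. The log2 odds ratio at 3 weeks minus that at 1 week was −0.06 (exact permutation p = 0.571), although at 500 or 2000 UMIs per cell, or without thinning, the 3-week value was lower by −0.45, −0.36, and −0.33 (each p = 0.0357 by exact permutation). The 1-week mean of −0.37 came closer to 0 at those settings, at −0.05, −0.17, and −0.10, while the 3-week mean stayed between −0.54 and −0.43. Both rejecting grafts were below 0, at −0.25 and −1.31. In naive spleen the mean was 0.21 with 3 of 5 libraries above 0, in recipient spleens at 3 weeks 0.06 with 2 of 5 above 0, and in the libraries labelled graft at 24 weeks 0.46 with 3 of 3 above 0. Values below 0 were not limited to grafts, since 3 of 3 libraries of recipient spleen at 1 week (mean −0.16) and 2 of 3 rejecting spleens were below 0. The libraries labelled spleen at 24 weeks, from which no tissue is read, were below 0 in 3 of 3 (mean −0.21).

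Il2ra was too scarce for a firm reading of its overlap. Cells with both Il2ra and Il2rb numbered 91 at 1 week and 39 at 3 weeks in accepted grafts, and 31 in rejecting grafts. The log2 odds ratios ran from −0.38 to 0.32 at 1 week and from −1.32 to 0.48 at 3 weeks, on both sides of 0. Cells with both Il7r and Il2ra numbered 33 and 18, and the log2 odds ratio changed by 0.37 between the times (exact permutation p = 0.536). In recipient spleen at 1 week 2, 2, and 4 cells held both Il2ra and Il2rb where independence gives 0.585, 0.729, and 1.57, with log2 odds ratios of 2.37, 2.01, and 1.90. All 3 lay above 0 on these few cells, which was not tested. The other spleen conditions, by label, held at most 3 such cells each, too few to detect exclusion or overlap.

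Il18r1 and Il18rap were found in the same cells more often than independence gives in 7 of 8 accepted graft libraries. Il18rap was detected in 6.29% of cells with and 3.69% of cells without an Il18r1 UMI at 1 week, and in 4.23% and 1.52% at 3 weeks. The mean log2 odds ratio was 1.20 ± 0.87 (SD, n = 8, exact permutation of signs p = 0.0156, adjusted over 36 pairs 0.0703), with the second 3-week library at −0.10. In the rejecting grafts it was 1.36 and 0.37. Il18rap, in 2.78% of myeloid-like cells, was under that share in every 3-week graft library, and in 10.2% of cells in the rejecting grafts.

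Il7r and Il18r1 were compared in the same way. Il18r1 was detected in 9.20% of cells with and 5.09% of cells without an Il7r UMI in 3-week grafts, in 16.1% and 13.0% in 1-week grafts, and in 33.3% and 24.7% in rejecting grafts. All 8 accepted graft libraries were above 0, from 0.03 to 1.21 (mean 0.70 ± 0.41, exact permutation of signs p = 0.00781, adjusted over 36 pairs 0.0563). Without dividing cells 6 of 8 were above 0. For Il4ra with Il21r the same 8 libraries were above 0 (mean 0.73 ± 0.27, exact permutation of signs p = 0.00781, adjusted over 36 pairs 0.0563), with Il21r in 23.3% of cells with and 16.4% of cells without an Il4ra UMI at 3 weeks. Myeloid-like cells held these 2 genes in 14.1% and 8.84%, and the part of myeloid RNA or merged cells in this overlap was not tested. Il21r was in 14.1% of cells with and 17.3% of cells without an Il7r UMI at 3 weeks. Of the 36 pairs, 5 lay on one side of 0 in all 8 libraries. The 2 not yet named were Il2rg with Il7r (mean 0.27 ± 0.19, 1165 cells with both) and Il2ra with Il15ra (8 cells with both). For Il4ra with Il21r independence gave as few as 4.15 cells with both in a library.

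**Figure D4:**
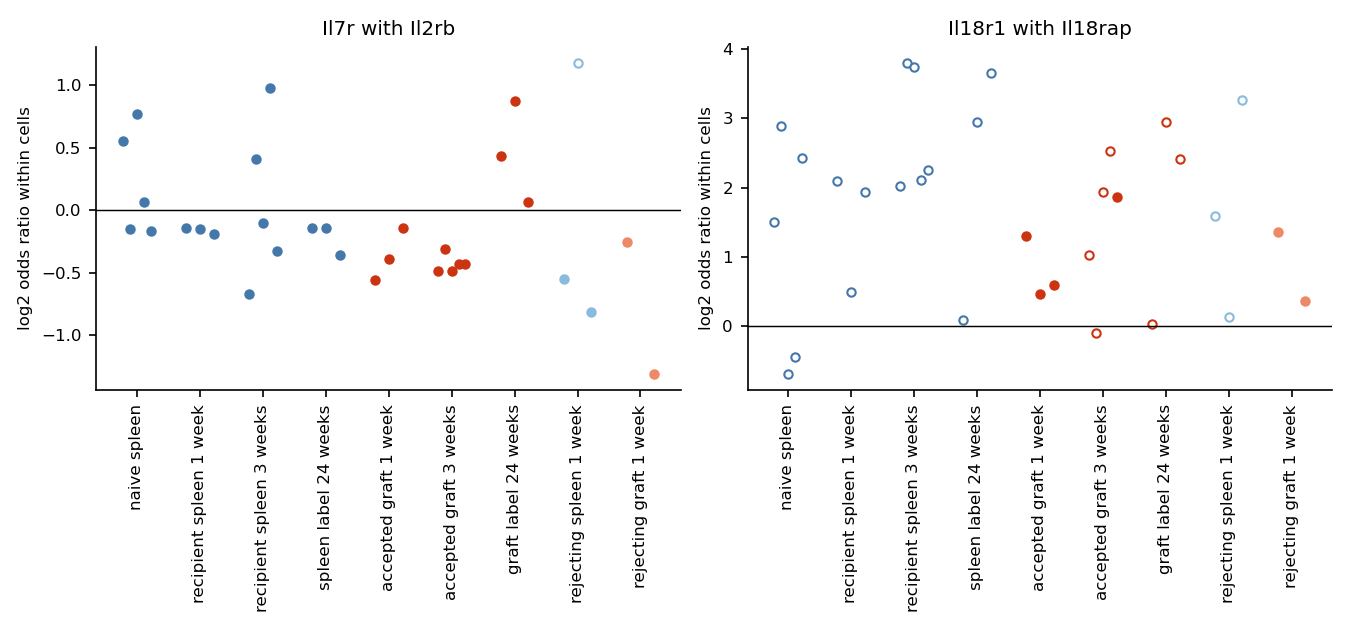
Log2 odds ratio of detecting both genes in a CD8+ cell thinned to 1000 UMIs, for Il7r with Il2rb and for Il18r1 with Il18rap, in each library of the 9 conditions; 0 is independence, and open circles mark libraries in which independence gives fewer than 5 cells with both. All 8 accepted graft libraries of 1 and 3 weeks lay below 0 for Il7r with Il2rb, between −0.558 and −0.145.

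In accepted grafts of 1 and 3 weeks, the effector gene Gzmb was compared between cells with and without an Il7r UMI. Gzmb encodes the cytotoxic protease granzyme B and was detected in 17.5% of Il7r-bearing and 33.2% of other CD8+ cells in 1-week grafts, and in 30.0% and 36.9% in 3-week grafts. The log2 odds ratio was −1.24 ± 0.25 (SD, n = 3) at 1 week and −0.45 ± 0.23 (n = 5) at 3 weeks, a difference in an exact permutation test (p = 0.0357, the smallest possible) of a pair of genes chosen after the values were seen. In rejecting grafts it was in 56.5% of Il7r-bearing and 57.0% of other cells, with the 2 libraries on opposite sides of 0, and in the libraries labelled spleen at 24 weeks in 22.7% and 23.4%. Lower shares in Il7r-bearing cells were not limited to accepted grafts, with 1.32% and 4.08% in recipient spleen at 1 week (log2 odds ratio −1.63, 3 of 3 libraries below 0) and 0.450% and 2.78% in rejecting spleen (−1.39, 3 of 3 below 0, with 1 cell that held both). Tcf7, a transcription factor of naive and memory T cells, was in 16.5% of Il7r-bearing and 7.65% of other cells at 1 week, and in 1.47% and 0.815% at 3 weeks, with log2 odds ratios from −0.69 to 1.69.

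At 1 week, Gzmb was in 45.2% of the 405 Il2ra-bearing cells and 31.3% of the others, with log2 odds ratios of 0.47 to 0.99 in the 3 libraries. At 3 weeks it was in 30.3% of the 99 Il2ra-bearing cells and 35.8% of the others, and the libraries lay on both sides of 0. Pdcd1, the gene of the inhibitory receptor PD-1, was in 40.8% of Il2rb-bearing and 34.5% of other cells at 3 weeks and in 25.1% and 22.7% at 1 week. The mean log2 odds ratio of Il2rb with Pdcd1 was 0.40 at 3 weeks and 0.23 at 1 week. With Cd44, another gene of activated T cells, it went the other way, at −0.04 and −0.16.

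Rejecting grafts were compared with accepted grafts of the same time. In all, 5 members were higher in rejecting grafts and none was called lower with plain totals, where 58.1% of 12222 genes were called (47.7% higher and 10.4% lower). The median of all genes was 0.68, and 82.1% of calls were higher with plain totals and 51.4% with TMM. Il18r1 was 326 and 315 CPM in the 2 rejecting grafts against 106 to 165 CPM in the 3 accepted grafts (1.30 ± 0.21, adjusted p = 0.000821). Il18rap was 120 and 107 CPM against 31.8 to 39.0 CPM (1.68 ± 0.16, adjusted p = 6.27e-05). Neither gene overlapped between the outcomes, and with TMM factors the differences were 0.63 and 1.02, both called. With the median shift over genes of similar intron length removed, Il18r1 lost its call (0.49, adjusted p = 0.0847).

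Il2ra was 83.1 and 78.6 CPM in rejecting grafts, above all accepted grafts, of which the third reached 53.6 CPM (1.17 ± 0.31, adjusted p = 0.0109). With TMM factors the difference of 0.50 was not called (adjusted p = 0.225), and with the intron-length shift removed it was 0.08. Cells with an Il2ra UMI made up 6.00% ± 0.497 (n = 2) at 1000 UMIs, compared with 2.56% in accepted grafts and 0.437% in myeloid-like cells of the rejecting grafts. Il21r (260 and 141 CPM; 1.43 ± 0.28) and Il15ra (23.6 and 10.7 CPM; 1.71 ± 0.33) were also called higher, although Il21r missed the threshold with TMM factors (0.76, adjusted p = 0.0557).

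The 2 rejecting grafts differed from each other in several members. Il7r was 152 and 56.8 CPM, one above and one below all accepted grafts, and Il4ra was 64.1 and 21.1 CPM. Dividing cells made up 14.5% of the first and 65.4% of the second, and their part in these differences was not tested. The Il7r difference from accepted grafts was 0.28 ± 0.35, not called, but −0.59 (adjusted p = 0.0351) without the first rejecting graft and 0.84 (adjusted p = 0.00181) without the second. Il4ra (0.94 ± 0.37, adjusted p = 0.0561), Il2rb (0.38 ± 0.15, adjusted p = 0.0569), and Il2rg (−0.03 ± 0.23) did not pass. These turned on the setting, since Il4ra was called higher without dividing cells (1.12, adjusted p = 0.0016) and without the second rejecting graft (1.56, adjusted p = 1.36e-05), and Il2rb without dividing cells (0.46, adjusted p = 0.0158). Il2rg was called lower with TMM factors (−0.70, adjusted p = 0.0447) and with DESeq2 (−0.72, adjusted p = 0.0241). With TMM factors Il2rb and Il7r turned direction, to −0.29 and −0.38, neither of them called.

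Against the spleens of rejecting mice, Il2ra was higher in rejecting grafts (4.42 ± 0.45, adjusted p = 1.28e-05), where the 3 spleens held 3, 0, and 3 UMIs, so its fold rests on few counts. Il2rb (1.19 ± 0.34), Il18rap (1.13 ± 0.32), and Il18r1 (1.07 ± 0.28) were also called higher and Il7r lower (−1.87 ± 0.36, adjusted p = 0.00259), where 17.2% of 8187 genes were called (11.4% higher and 5.79% lower). The median was 0.25, with 66.4% of calls higher with plain totals and 48.2% with TMM, and with TMM the calls of Il2rb, Il18r1, and Il18rap were lost. Il7r was 366, 431, and 357 CPM in the spleens, above both grafts. Without the spleen library of 56 cells the 5 calls remained, with Il2ra at 4.26 and Il7r at −1.80, but without either of the other 2 spleen libraries Il2rb, Il18r1, and Il18rap lost theirs (adjusted p from 0.0612 to 0.196). Il4ra was called lower without the first rejecting graft (−1.30, adjusted p = 0.0138), and Il21r higher without the second (1.13, adjusted p = 0.0181). Dividing cells made up 14.5% to 65.4% of cells in these grafts and 3.57% to 7.37% in the spleens, and no member's call changed without them. The 5 myeloid genes summed to 211 to 259 CPM in these grafts and 10.1 to 104 CPM in the spleens, and the 3 B cell genes to 3.45 to 8.72 CPM and 58.7 to 258 CPM. The part of myeloid and B cell RNA in these differences was not tested.

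No member's graft-to-spleen difference was called as differing between rejecting and accepted mice by edgeR, in an interaction with 0.546% of 11915 genes called (0.302% positive and 0.243% negative). At an unadjusted p under 0.05 there was 1 member, Il2ra at 2.08 ± 0.71 (adjusted p = 0.225). DESeq2 called 0 members as well. Il2ra was called over all cells of the matrices (3.73, adjusted p = 0.00625) and without the third accepted graft (2.50, adjusted p = 0.0342).

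In the libraries labelled 24 weeks, 7 of the 9 receptor genes differed between the labels. Il2rb was 79.5, 94.3, and 104 CPM in those labelled graft and 374, 330, and 397 CPM in those labelled spleen (−1.98 ± 0.11, adjusted p = 1.19e-10). Il7r was 359, 407, and 426 CPM in those labelled graft and 209, 238, and 245 CPM in those labelled spleen (0.79 ± 0.09, adjusted p = 2.1e-06). The labelled groups did not overlap in either gene, and both differences were opposite in sign to those between graft and spleen at 3 weeks.

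Il21r (−1.99 ± 0.13), Il2ra (−1.68 ± 0.43), Il15ra (−1.55 ± 0.23), and Il4ra (−1.25 ± 0.12) were also lower and Il18r1 (0.57 ± 0.12) higher in the libraries labelled graft, where 53.8% of 9840 genes were called (14.7% higher and 39.1% lower), the median was −0.23, and 27.3% of calls were higher with plain totals and 48.0% with TMM. Il2ra rested on 5, 3, and 3 UMIs in the libraries labelled graft, lost its call with DESeq2 (adjusted p = 0.117), and was 0.58 over all cells. The 5 myeloid genes summed to 6.16 to 12.6 CPM in the libraries labelled graft and 112 to 115 CPM in those labelled spleen, and the 3 B cell genes to 72.97 to 199 CPM and 11.9 to 39.2 CPM, and their part in these differences was not tested. Set against accepted grafts at 3 weeks, 8 members were lower and Il7r was higher (0.89 ± 0.16, adjusted p = 0.000106), led by Il2rb at −2.87 ± 0.11 (adjusted p = 1.7e-12). In that comparison 71.1% of 11534 genes were called (14.2% higher and 56.9% lower) and the median was −0.51, and 19.9% of calls were higher with plain totals and 48.0% with TMM. In the 3-week grafts the 5 myeloid genes summed to 348 to 702 CPM and the 3 B cell genes to 10.02 to 24.1 CPM, and their part in this comparison was not tested. With TMM the falls of Il2rg, Il18r1, and Il18rap were no longer called, at 0.04, 0.09, and −0.12. With the intron-length shift removed Il18r1 was called higher instead (0.25, adjusted p = 0.024).

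Of 35 other genes of these pathways, 25 were tested between 1 and 3 weeks in accepted grafts, of which 18 were higher and 5 lower, with a median difference of 0.71. Of all genes tested in this comparison 53.6% were higher and 21.2% lower. Bcl2, a survival gene downstream of IL-7 and IL-15, was higher by 2.82 ± 0.13, and the STAT5 target Cish by 2.13 ± 0.10. Both lay above the median of all genes, as did Il12rb2 (1.35), Socs1 (1.17), and Socs2 (1.17). Il1rl1, the IL-33 receptor and a relative of Il18r1, fell (−4.04 ± 0.49), and Socs3 (−0.50), Stat5a (−0.37), Myd88 (−0.36), and Crlf2 (−0.36) were lower.

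Between graft and spleen at 3 weeks, 11 of 23 tested pathway genes were higher in the graft and 3 lower, a count near the background of 48.6% and 16.8% over all genes. Cish was higher by 4.63 ± 0.13 and Socs2, another feedback gene of STAT signalling, by 4.27 ± 0.21. Il12rb2 and Il12rb1, the IL-12 receptor chains, were higher by 2.40 and 2.33. At 1 week 13 of 26 were higher and 3 lower (30% and 19.4% of all genes), among them Cish at 2.15 and Il9r, another partner of the common gamma chain, at −5.47 ± 0.68. In the cells with a Cd8a or Cd8b1 UMI of recipient spleens at 1 week, 5 of 23 were higher and 11 lower than in naive spleen (21.1% and 36.5% of all genes), with Il9r higher by 4.64 ± 0.57. The 3 B cell genes differed in the same directions as Il9r in both comparisons, at 379 to 811 CPM in the 1-week spleens, 24.5 to 48.3 CPM in naive spleens, and 8.86 to 9.09 CPM in 1-week grafts, and their part in the Il9r values was not tested.

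Between rejecting and accepted grafts, 15 of 28 pathway genes were higher and 4 lower (47.7% and 10.4% of all genes), with a median of 0.73 close to the 0.68 of all genes. Il12rb2 was higher by 3.26 ± 0.32 and Stat5b by 2.17, and the feedback genes Socs1 and Socs3 were lower by −1.51 and −1.21. The counts in the other comparisons were 12 higher and 1 lower of 20 between 1 and 3 weeks in recipient spleens (31.9% and 17.4% of all genes) and 5 and 1 of 21 between rejecting grafts and spleens (11.4% and 5.79%). They were 1 and 13 of 22 between the 24-week labels (14.7% and 39.1%) and 2 and 15 of 24 between the 24-week graft label and the 3-week grafts (14.2% and 56.9%). The interaction over time gave 7 and 3 of 26 (24.3% and 9.48%), and that with rejection 0 of 26 (0.546% called). The ligand genes Il4, Il7, Il9, and Il15 had too few counts to be tested in any of these comparisons.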

How the data were processed

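Droplet 3′ single-cell RNA-seq was performed on CD45+ cells of mouse kidney grafts and spleens. The authors mapped reads with Cell Ranger (version not given; build mm10, both per the submitters' processing notes), called CD8+ T cells from clusters, and deposited raw UMI counts per gene and cell without normalization. Conditions were taken from the labels and libraries from the barcode tags. The CD45+ matrices of accepted mice were not used here, and those of rejecting grafts and naive spleen gave background shares of cells with a UMI.

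For each library, UMIs were added up over the cells that held Cd8a or Cd8b1, and CPM were obtained by dividing by the plain library total. Pairs of conditions were compared by edgeR 4.0.16 in R 4.3.3 (filterByExpr, quasi-likelihood test, Benjamini-Hochberg adjustment over all genes tested, threshold 0.05). All adjusted p-values of log2 differences come from these fits. How many of all genes had groups of libraries without overlap was not counted, so groups that were apart in a member are not read as particular to it. In simulated counts with 200 genes changed 2-fold, 99.5% of them were recovered for accepted grafts at 3 against 1 week, 95% for graft against spleen at 1 week, and 79.5% for rejecting against accepted grafts. The changed genes lay above a minimum level and went up and down in equal numbers, and all genes had the same simulated spread between libraries. Only 200 genes were changed, of 11489 tested for accepted grafts at 3 against 1 week. In the real comparison 74.8% of genes were called, 53.6% as higher and 21.2% as lower. These shares therefore do not give the recovery of scarce genes or of genes that varied more between libraries. Nor do they give it where most genes differ and mainly in 1 direction. Shares and combinations were taken after thinning each cell to 1000 UMIs, leaving out shallower cells (4 to 71 cells in each of 3 spleen conditions). No doublet caller was run and none is described in the sources used here, so cells that hold genes of 2 merged cells may remain among those with both genes. Odds ratios were computed per library with 0.5 added to each cell of the 2 by 2 table, so libraries with few double-positive cells are pulled by that addition, and were compared over libraries by two-sided exact permutation tests. These tests, the intervals, and the shares cover the spread between libraries or counting error only.

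The members and pathway lists were chosen with earlier results of these data known. The genes named were the members, pathway genes called in the comparison described, and the genes most alike over the 9 conditions among those with at least 20 CPM in 1 condition. Pairs of members tested by sign permutation, and Il7r with Gzmb, were chosen after their values were seen. Alternatives were TMM factors, DESeq2 1.42.0, no filter on low counts, all cells of each matrix, cells without a Cd4 UMI, cells that were not dividing, 1 fit over all conditions, removal of the median shift over 10 groups of intron length, other thinning depths, and leaving out each library. Promoter windows came from RefSeq (GRCm38.p6) and gene coordinates from GENCODE on GRCm38.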

Additional observations from a re-analysis of the deposited data

Results flagged for a closer look

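The change in the difference between graft and recipient spleen from 1 to 3 weeks passed the interaction test of edgeR for 7 of the 9 receptor genes, where 33.7% of all genes tested passed. It was −1.73 for Il2ra, 0.88 for Il2rb, 1.84 for Il15ra, 0.75 for Il4ra, 0.97 for Il21r, −0.77 for Il18r1, and −0.77 for Il18rap, on the log2 scale. The difference of graft minus spleen thus went down for Il2ra and both IL-18 receptor chains and up for Il2rb and the chains specific for IL-15, IL-4, and IL-21.

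A single library lay far from the others of its condition in 4 of 54 groups of values tested, where chance gives about 1 in 20. Il2rg was 274 CPM in the second naive spleen library, above the other 4, and Il18r1 was 52.4 CPM in the same library, below the other 4. Il18r1 was 54.6 CPM in the fourth graft library at 3 weeks, below the rest. The share of cells with an Il15ra UMI was 0.655% in the second recipient spleen library at 3 weeks, above the rest.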

How the results depend on the processing

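Of the log2 differences of single members recomputed under settings other than leaving out a library, 735 kept their side of the threshold, 51 lost their call, 23 gained one, and 9 turned direction with a call before or after. Turns of direction among values without a call were not counted. An example is Il2rb between rejecting and accepted grafts, at 0.38 with plain totals and −0.29 with TMM. Against accepted grafts at 3 weeks, the 24-week graft label gave Il2rg at 0.0379 with TMM and 0.0203 with DESeq2, Il18r1 at 0.0931, 0.0757, and, with the intron-length shift removed, 0.245 (called higher, adjusted p = 0.024), Il18rap at 0.0364 with that removal, and Il2ra at 0.0806 over all cells. Over all cells of the matrices Il2ra was −0.72 between graft and spleen at 3 weeks and 0.58 between the 24-week labels. Il7r between rejecting and accepted grafts was −0.59 without the first rejecting graft and 0.84 without the second.

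The number of members called was within 1.5 times its main value in 85 recomputed counts and further from it in 6. These 6 were 5 of 9 for recipient spleen at 1 week against naive spleen over all cells, 2 for rejecting against accepted grafts with the intron-length shift removed, 2 for rejecting graft against spleen with TMM, with DESeq2, or with that removal, and 1 for the rejecting interaction over all cells (Il2ra at 3.73). Leaving out each library gave 9 to 9 calls between 1 and 3 weeks in grafts and for the 24-week graft label against 3-week grafts, 5 to 9 for recipient spleen at 1 week against naive (5 without the third 1-week library), 4 to 6 for recipient spleen over time, 5 to 7 and 5 to 6 for graft against spleen at 1 and 3 weeks, 6 to 7 between the 24-week labels, 5 to 7 for rejecting against accepted grafts, 2 to 6 for rejecting graft against spleen (2 without the first or the third spleen library), 6 to 7 for the interaction over time, and 0 to 1 for the rejecting interaction (Il2ra at 2.50 without the third accepted graft at 1 week). The causes were not tested.

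The 3-week minus 1-week change in the log2 odds ratio of Il7r with Il2rb was −0.45 at 500 UMIs, −0.36 at 2000 UMIs, and −0.33 without thinning (Mantel-Haenszel over 10 depth groups), each past the threshold, and −0.159 to 0.0479 on leaving out a library. For Il2ra with Il2rb it was −0.70 at 500 UMIs, 0.0900 at 2000 UMIs, −0.54 without thinning (past the threshold, exact permutation p = 0.0357, the smallest possible), and −0.28 to 0.17 on leaving out a library, and for Il7r with Il2ra −0.0392 to 0.948. Of the shares of cells with a UMI, 161 recomputed values moved by less than 1 SD and 163 by more.

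With the number in the library tags as a replicate block, an alternative chosen after seeing the data, 7 members were called between graft and spleen at 1 week (6 without the block; Il18rap gained) and 6 at 3 weeks (5 without; Il2ra gained, at 0.64), and 7 between the 24-week labels, as without it. Same-numbered libraries deviated together with r of 0.0895 to 0.280 at 1 week, 0.0549 to 0.464 at 3 weeks, and −0.0734 to 0.261 at 24 weeks. Libraries of different numbers were not set beside them, so whether the numbers mark the same mouse was not settled. The main tests left out any pairing of graft and spleen. Depth limits Il2ra and Il15ra, which were in few cells, and the rejecting spleens, of which 1 library held 56 cells.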
